A study of Ovis aries with 16 samples.

Results

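The genes described here encode proteins of the extracellular matrix and of cell adhesion in the testis of Merino male sheep. They are the 16 genes whose symbol, in the study's own lists of genes that differed between the diets, named a collagen, laminin, integrin, matrix protease or its inhibitor, fibulin, latent TGF-beta binding protein, syndecan or glypican. The files held 25197 genes, of which 1763 had a symbol in those lists, and 11148 genes, among them all 16, had CPM above 5 in at least 8 libraries. The copy of the largest list used here was shortened, so other genes of these families may be missing, and matrix genes that the study did not list could not be found by symbol. Of the 16, 15 encode a matrix or adhesion protein. The other, ITGB3BP, carries an integrin in its name but encodes a centromere protein, and was kept because its symbol met the rule.

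All 16 animals were sexually mature males kept in individual pens. A high diet, set for a gain of 10% in body mass over 65 days, was given to 8 sheep (well-fed), and a low diet, set for a loss of the same size over the same time, to the other 8 (underfed). Pieces from the top, middle and bottom of the right testis were mixed, so each of the 16 libraries represents a whole testis of 1 sheep. The level of a gene is given as CPM, the reads on the gene divided by all reads counted on genes in the library and scaled to a fixed total.

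In the seminiferous tubule, Sertoli cells and peritubular myoid cells together lay down the basement membrane on which the spermatogonia rest. Laminins and type IV collagen form its networks, and integrins, syndecans and dystroglycan hold cells to it. Proteases of the ADAMTS and MMP families cut matrix proteins, and TIMPs inhibit them.

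The genes were chosen by the study's comparison of the diets in these same sheep. Their differences and calls for diet, here and under alternatives, are therefore a description and not an independent test, and nothing is drawn from them. Of the 16, 14 had a higher mean CPM in underfed than in well-fed sheep, by ratios of 1.90 to 3.26, and ADAMTS6 and ITGB3BP had a lower one. With limma, an adjusted p-value under 0.1 and a ratio above 1.5, the same 14 were called higher and none lower, where 16.2% of all genes tested were called, 10.8% higher and 5.42% lower in underfed sheep. The median log2 fold change, low diet over high diet on the log2(CPM + 1) scale, was 1.12 over the 16 genes and 0.01 over all genes tested. Without TMM factors the median of all genes was 0.17 and that of the 16 genes 1.26. The count of 14 fell to 8 when any of 6 sheep was left out (well-fed 1, 5, 6 and 8, underfed 4 and 6), and those 8 were COL4A3, COL4A4, COL18A1, LAMA1, LAMB2, TIMP3, ITGB5 and GPC4. With testis weight as a covariate no gene was called by limma, and the median of the 16 genes was 0.79. An unadjusted p under 0.05 was found for 544 of 11148 genes, no more than that threshold passes by itself. The paper describes reduced testis mass in underfed rams, so this fit cannot separate diet from weight. The SE of the diet difference rose in it, from 0.22 to 0.31 for COL4A3 and from 0.38 to 0.51 for LAMB2. In bulk tissue, fewer cells of a type and less RNA per cell cannot be told apart.

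**Figure D1:**
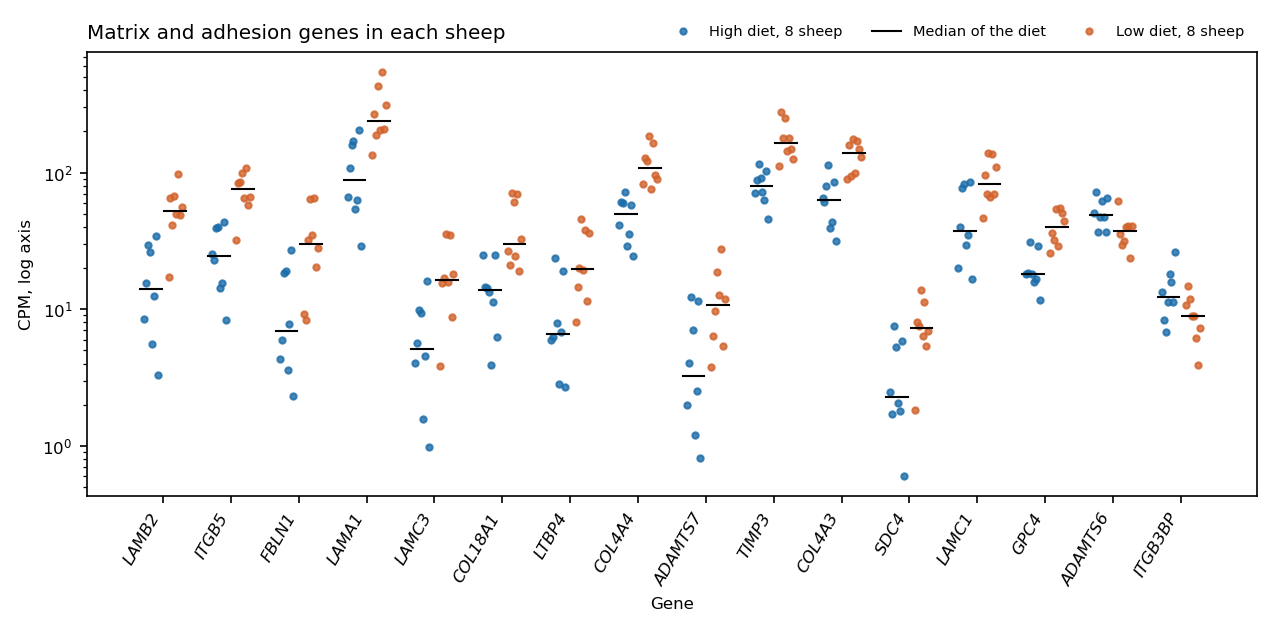
CPM (log axis) of each of the 16 genes, with 1 point per sheep, 8 sheep per diet, and a bar at the median of each diet. The first 14 genes have a higher median in underfed sheep, ADAMTS6 and ITGB3BP a lower one, and in every gene except COL4A4 the points of the diets overlap.

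COL4A3 and COL4A4, a pair of type IV collagen chains that assemble together in basement membranes, were both more abundant in underfed sheep. COL4A4 (ENSOARG00000020503) had 24.5 CPM in the lowest, 49.7 in the median and 72.0 in the highest well-fed sheep, against 75.33, 109 and 185 CPM in underfed sheep. It was the only member whose CPM did not overlap between diets. In 0.762% of all genes tested the CPM of every underfed sheep was above that of every well-fed sheep. After division by TMM factors no member was free of overlap. On that scale every underfed sheep was above every well-fed sheep in 0.466% of all genes tested, and below in 0.0807%. Its mean CPM was 2.48 times as high in underfed sheep, a log2 fold change of 1.14 ± 0.21 (SE, n = 8 per diet). COL4A3 (ENSOARG00000020525) ranged from 31.5 through a median of 63.2 to 113 CPM in well-fed sheep and from 89.6 through 139 to 176 CPM in underfed sheep, with a ratio of 2.06 and a log2 fold change of 0.93 ± 0.22. Well-fed sheep 4 alone lay above an underfed sheep, so 7 of 8 well-fed sheep were below every underfed sheep. The ratio of COL4A4 to COL4A3 in the same sheep was 0.754 ± 0.118 in well-fed and 0.891 ± 0.207 in underfed sheep (mean ± SD), and 2 of 8 underfed sheep lay above every well-fed sheep.

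COL18A1 (ENSOARG00000012584), the basement membrane collagen from which endostatin is cleaved, had 3.91, 13.9 and 25.0 CPM in the lowest, median and highest well-fed sheep and 19.1, 29.8 and 70.5 CPM in underfed sheep. Its underfed values split into underfed 3, 4 and 6, between 60.9 and 70.5 CPM, and the other 5 sheep, at 32.8 CPM or less. The ratio was 2.86 and the log2 fold change 1.30 ± 0.34.

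The laminins are trimers of an alpha, a beta and a gamma chain. LAMB2 (ENSOARG00000014559), a beta chain, had the largest difference among the 16 genes. It was at 3.29, 14.02 and 34.5 CPM in the lowest, median and highest well-fed sheep and at 17.1, 52.7 and 97.7 CPM in underfed sheep. In 7 of 8 underfed sheep it lay above every well-fed sheep, and underfed 1 was the exception. Its ratio was 3.26, with a log2 fold change of 1.69 ± 0.38. LAMA1 (ENSOARG00000000327), the alpha chain of tubular and embryonic basement membranes, ranged from 29.0 through 87.5 to 203 CPM in well-fed and from 135 through 237 to 542 CPM in underfed sheep. The highest well-fed sheep, number 7, exceeded 2 underfed sheep, and the ratio was 2.67 (log2 fold change 1.36 ± 0.34).

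The gamma chains overlapped more between the diets. LAMC1 (ENSOARG00000019180), the common gamma chain, was at 16.6, 37.5 and 85.0 CPM in well-fed and 46.4, 82.7 and 139 CPM in underfed sheep. Only 4 of 8 underfed sheep were above every well-fed sheep, and its ratio of 1.90 was the lowest of the 14 genes (log2 fold change 0.89 ± 0.31). LAMC3 (ENSOARG00000007270), a gamma chain of restricted distribution, was at 0.987, 5.09 and 16.04 CPM in well-fed and 3.86, 16.3 and 35.3 CPM in underfed sheep, a ratio of 2.87. Underfed 1 was below the median of the well-fed sheep, and well-fed 7 was above 4 underfed sheep. Its log2 fold change was 1.33 ± 0.43.

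Within a sheep, LAMB2 stood in a different proportion to LAMC1 in the diets. The ratio of their CPM, which no scaling between libraries can alter, was 0.187, 0.371 and 0.421 in the lowest, median and highest well-fed sheep and 0.369, 0.637 and 0.745 in underfed sheep. In 7 of 8 underfed sheep it exceeded every well-fed sheep. The mean was 0.332 ± 0.0916 in well-fed and 0.600 ± 0.134 in underfed sheep (SD, n = 8). LAMA1 over LAMC1 averaged 2.24 ± 0.536 and 3.04 ± 0.390, but only 1 underfed sheep lay above every well-fed sheep. LAMC3 over LAMC1 averaged 0.127 ± 0.0529 and 0.191 ± 0.0652, with 4 of 8 underfed sheep above every well-fed sheep. These ratios are not corrected for gene length and are compared only between sheep.

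FBLN1 and LTBP4 encode matrix proteins that associate with elastic fibres, and LTBP4 also binds latent TGF-beta. FBLN1 (ENSOARG00000019404) had 2.30, 6.90 and 27.1 CPM in the lowest, median and highest well-fed sheep and 8.32, 30.2 and 64.6 CPM in underfed sheep. It was among the most variable of the 16, with an 11.8-fold range among well-fed and a 7.77-fold range among underfed sheep. Underfed 1 and 2, both under 10 CPM, lay among the well-fed sheep. Underfed 7, at 20.4 CPM, was below well-fed 7 only, and 5 of 8 underfed sheep were above all well-fed sheep. The ratio was 2.97 and the log2 fold change 1.41 ± 0.47. LTBP4 (ENSOARG00000006826) was at 2.69, 6.58 and 23.9 CPM in well-fed and 8.07, 19.8 and 45.9 CPM in underfed sheep, with a ratio of 2.56 and a log2 fold change of 1.23 ± 0.39. Its well-fed values were set apart by sheep 3 and 7, at 23.9 and 19.2 CPM, since the other 6 were at 7.90 CPM or less and below every underfed sheep.

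TIMP3 (ENSOARG00000018210), an inhibitor of metalloproteases that binds to the matrix, had one of the narrowest spreads of the 16. It was at 45.7, 80.1 and 116 CPM in well-fed and 111, 163 and 276 CPM in underfed sheep, and only well-fed 3 and underfed 1 overlapped. Its ratio was 2.19, with a log2 fold change of 0.94 ± 0.19.

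The ADAMTS proteases differed in opposite directions. ADAMTS7 (ENSOARG00000000333), which cuts cartilage oligomeric matrix protein, was at 0.823, 3.27 and 12.4 CPM in well-fed and 3.77, 10.8 and 27.5 CPM in underfed sheep, with a ratio of 2.32 and a log2 fold change of 1.09 ± 0.43. All 8 underfed sheep exceeded the median of the well-fed sheep, but only 3 exceeded the highest of them. Its lowest level rested on 15 reads. ADAMTS6 (ENSOARG00000006371), a less studied member of the same family, was at 36.6, 48.9 and 72.4 CPM in well-fed and 23.6, 37.6 and 62.1 CPM in underfed sheep. In 7 of 8 underfed sheep it was below the well-fed median, and underfed 1 was at 62.1 CPM. Its mean was 1.38 times as high in well-fed sheep, which missed the ratio of 1.5, with a log2 fold change of -0.63 ± 0.22.

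Among receptors, ITGB5 (ENSOARG00000020222), an integrin beta chain that with alpha V binds vitronectin, was at 8.28, 24.3 and 43.5 CPM in well-fed and 32.0, 75.5 and 107 CPM in underfed sheep. All underfed sheep except number 1 were above every well-fed sheep, the ratio was 2.86 and the log2 fold change 1.42 ± 0.28. SDC4 (ENSOARG00000005209), the syndecan of focal adhesions, was at 0.603, 2.27 and 7.54 CPM in well-fed and 1.84, 7.28 and 13.9 CPM in underfed sheep. Underfed 1 was below the well-fed median, and the lowest value rested on 11 reads, the fewest of any of the 16 genes in any library. Its ratio was 2.25 and its log2 fold change 0.92 ± 0.34. GPC4 (ENSOARG00000012262), a heparan sulfate proteoglycan anchored in the membrane by a lipid, was at 11.7, 18.1 and 30.9 CPM in well-fed and 25.7, 40.1 and 55.2 CPM in underfed sheep. Only well-fed 3 and 7 reached into the underfed range, and the ratio was 2.07 (log2 fold change 0.86 ± 0.20).

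ITGB3BP (ENSOARG00000009729), the centromere gene, was at 6.80, 12.3 and 26.0 CPM in well-fed and 3.91, 8.93 and 14.7 CPM in underfed sheep. Its mean was 1.53 times as high in well-fed sheep, but it missed the limit on the adjusted p-value, with a log2 fold change of -0.70 ± 0.29. Well-fed 8, which after division by TMM factors had the least of 11 of the 14 genes above, had the most ITGB3BP.

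The 14 genes that were higher in underfed sheep ranked the sheep of a diet alike. These ranks were taken on CPM divided by TMM factors. Among well-fed sheep, number 8 was lowest in 11 of the 14, and numbers 3, 7 and 4 were among the 3 highest in 13, 13 and 12. Among underfed sheep, number 1 was lowest in 10, and numbers 4 and 6 were among the 3 highest in all 14. After the mean of each diet was removed, every one of the 91 pairs of these genes was positively correlated over the 16 sheep (median r 0.762, from 0.188 for the least to 0.942 for the most alike pair). Over the 120 pairs of all 16 genes the median r was 0.668 and 92 pairs were positive, against a median r of -0.02 over all pairs of genes tested. These correlations share the same 16 libraries and are a description only. The 14 genes were grouped by the direction of their diet difference, and other genes higher in underfed sheep were not set beside them. The median over all pairs is therefore an unlike background, and the common variation is not shown to be particular to matrix genes. Some genes outside the list also followed them closely, as given below.

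**Figure D2:**
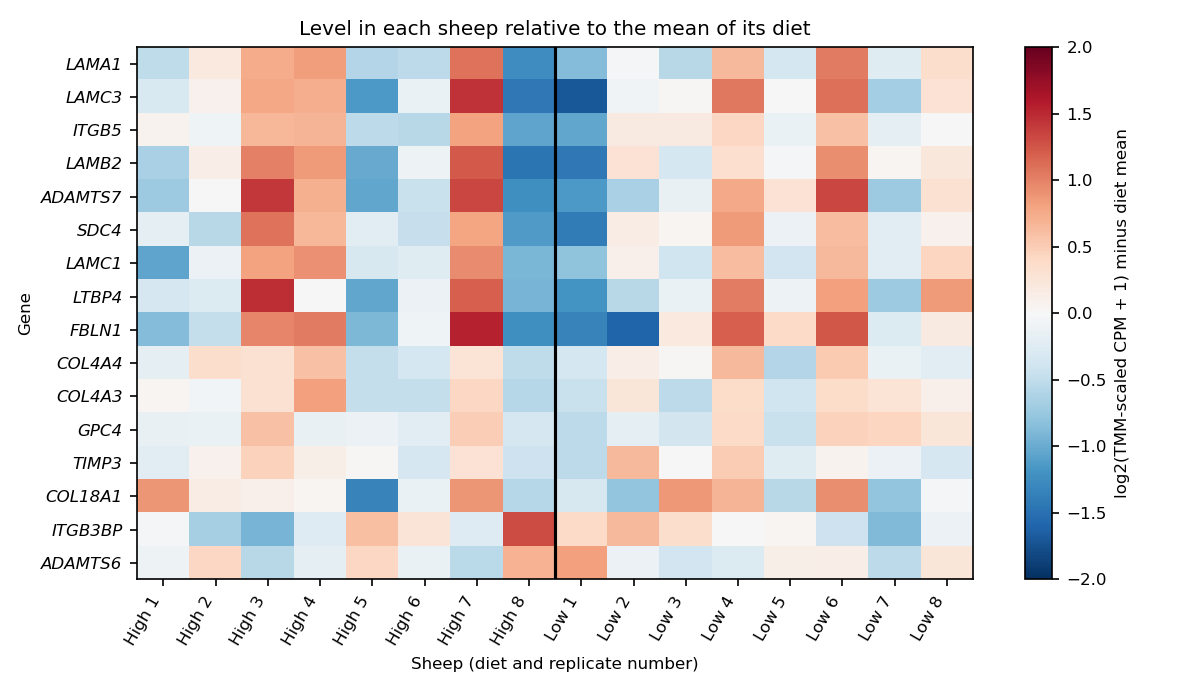
Difference of each gene (rows, ordered by correlation with the other genes) from the mean of its diet, in log2(TMM-scaled CPM + 1), in each of the 16 sheep (columns, high diet left of the line). Well-fed 8 and underfed 1 are low, and well-fed 3, 4 and 7 and underfed 4 and 6 high, in most of the 14 upper rows, while the 2 lowest rows tend to run the other way.

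Laminin chains, an integrin chain and a protease were among the genes closest to the others. With the diet means removed, LAMA1 had an r of 0.960 with the mean of the other genes, LAMC3 0.957, ITGB5 0.939, LAMB2 0.932, ADAMTS7 0.927, SDC4 0.925 and LAMC1 0.900. TIMP3 (0.658) and COL18A1 (0.543) followed the others least among the 14, and ADAMTS6 (-0.677) and ITGB3BP (-0.636) ran against them. The signs were the same within each diet. ADAMTS6 had an r of -0.856 among well-fed and -0.445 among underfed sheep, and COL18A1 had 0.543 and 0.550. The members also varied more than other genes, with a median SD of 0.748 among well-fed and 0.587 among underfed sheep on the log2 scale, against 0.482 and 0.478 for all genes tested.

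**Figure D3:**
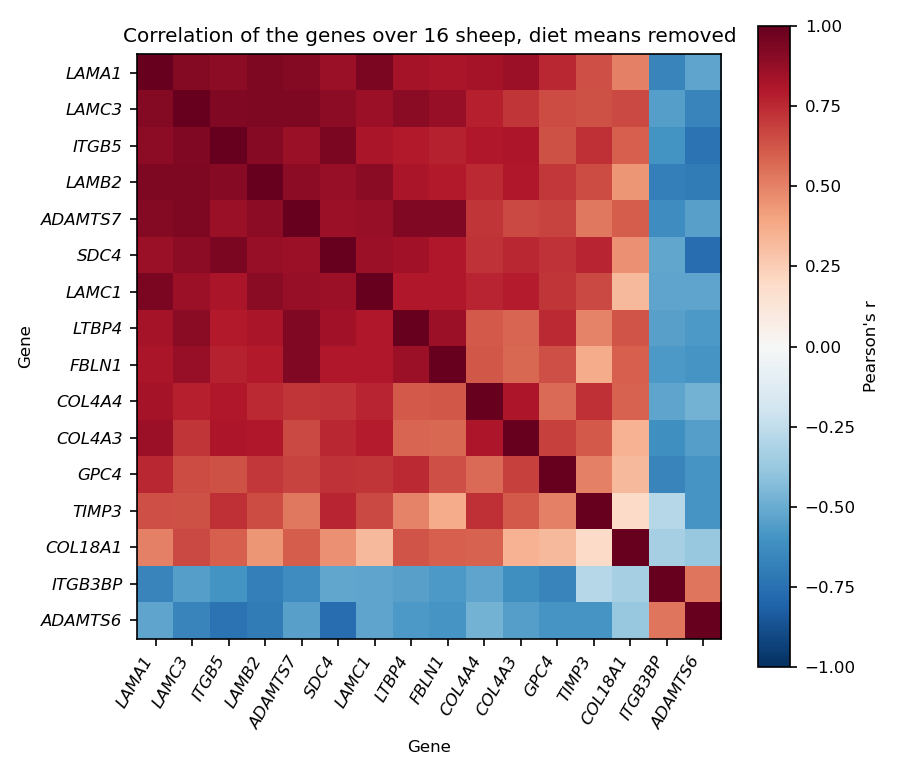
Pearson's r of every pair of the 16 genes over 16 sheep after removal of the diet means. The 14 genes from LAMA1 to COL18A1 are positively correlated in all 91 pairs, and ITGB3BP and ADAMTS6 are negatively correlated with each of them.

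The genes outside the list whose diet-centred levels were most like the mean of the 16 genes over 16 sheep were MYO9B, an unconventional myosin (r 0.979), MERTK, the receptor with which Sertoli cells engulf dead germ cells (0.978), POGK (0.978), SRGAP3 (0.975), and BRPF1, a chromatin reader (0.974). The mean of the 14 genes followed the leading principal component of all genes tested, which held 59.6% of the variance, with an r of 0.972 after removal of the diet means. It had an r of 0.653 with the log2 TMM factor of the library (0.766 among well-fed and 0.423 among underfed sheep) and of -0.296 with the log2 number of reads (-0.567 and 0.02). The part of these measures in the common variation was not tested.

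Markers of testicular cell types were examined beside the 14 genes, as far as the study's lists gave them a symbol. Because those lists hold genes that differed between diets, the markers found are not a random part of each set, and with few matched in every set except the spermatocytes their sums are a description only. No matched marker was at 0 in any library. The 4 of 9 peritubular myoid markers found (MYH11, DES, SMTN and TPM2) summed to between 58.0 and 285 CPM in well-fed and between 147 and 584 CPM in underfed sheep. Their log2 sum had an r of 0.928 with the mean of the 14 genes after removal of the diet means. Most of this sum was MYH11, with a mean of 119 CPM in well-fed and 292 CPM in underfed sheep. Taken singly, r was 0.964 for SMTN, 0.912 for MYH11, 0.619 for DES and 0.553 for TPM2. The 5 of 10 Sertoli cell markers summed to 113 to 164 and 198 to 532 CPM, with an r of 0.222. Within the Sertoli set, the r with the 14 genes was 0.943 for GATA4, 0.857 for WT1, 0.649 for INHA, 0.02 for FSHR and -0.30 for CLDN11. CLDN11 and FSHR had the highest mean CPM of this set in both diets, so they weigh most in its sum. The r of single markers was chosen for mention after the values were seen.

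The spermatid and spermatocyte markers that could be matched ran the other way. The 3 of 11 spermatid markers (SPACA1, CAPZA3 and ZPBP) summed to between 933 and 2345 CPM in well-fed and between 474 and 1539 CPM in underfed sheep. Their log2 sum had an r of -0.951 with the mean of the 14 genes. CAPZA3 made up most of this sum (mean 1043 CPM in well-fed and 710 CPM in underfed sheep). Taken singly, r was -0.954 for SPACA1, -0.927 for CAPZA3 and -0.500 for ZPBP. SPACA1 was called lower in underfed sheep, and CAPZA3 and ZPBP were not called. The 8 of 9 spermatocyte markers summed to between 730 and 2695 CPM and between 292 and 1497 CPM, with an r of -0.527. The r of single spermatocyte markers ran from -0.764 for SYCP3 to -0.317 for SYCP1. Of these markers 7 were called lower in underfed sheep, as 5.42% of all genes tested were, and SMC1B was not called. No spermatogonial marker had a symbol in the lists. Of other cell types, 1 of 8 Leydig markers (STAR, r -0.343), 1 of 9 endothelial (FLT4, 0.613), 1 of 7 leukocyte (PTPRC, 0.442) and 2 of 6 fibroblast markers (PDGFRA and C7, 0.589 for their sum) were found. STAR was called lower in underfed sheep (ratio 0.393), and FLT4 (2.72) and PTPRC (2.06) were called higher. The fibroblast markers differed. PDGFRA was called higher in underfed sheep (ratio 2.28, r 0.741) and C7 lower (ratio 0.529, r 0.161). The part of cell composition in the levels of the matrix genes was not tested.

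**Figure D4:**
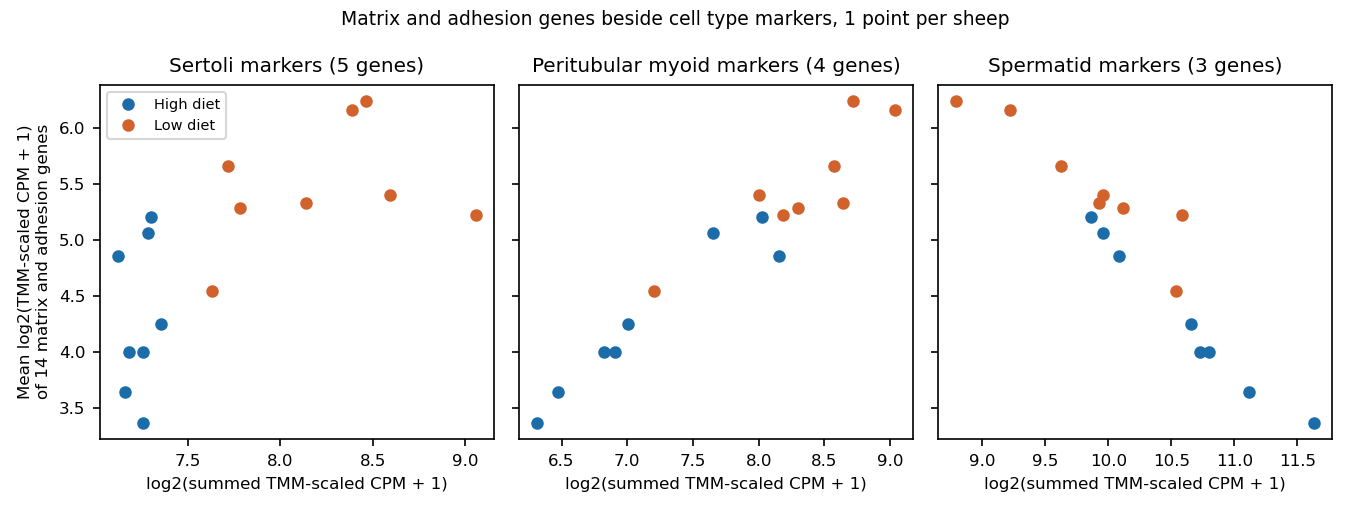
Mean log2(TMM-scaled CPM + 1) of the 14 genes that were higher in underfed sheep (vertical axis) against the log2 summed level of the Sertoli, peritubular myoid and spermatid markers that could be matched (5, 4 and 3 genes), with 1 point per sheep. Taken as sums, peritubular myoid markers give a rising line and spermatid markers a falling line within both diets (r 0.928 and -0.951 after removal of the diet means). The sum of Sertoli markers gives no such line (r 0.222). Each sum follows its most abundant genes. The r of single markers ran from 0.553 to 0.964 (myoid), -0.30 to 0.943 (Sertoli) and -0.954 to -0.500 (spermatid).

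Relations to the traits of the testis did not enter the choice of genes, and were tested. For 6 traits (testis weight, sperm number, tubule diameter, volume of the seminiferous epithelium, change of scrotal circumference and apoptotic germ cells) limma was fitted over all genes with diet in the model, so that the slope describes sheep within the diets. No slope of the 16 genes passed an adjusted p-value of 0.1 for any trait. Over all genes, 1 gene (0.00897%) passed it for testis weight and none for the other 5 traits, and edgeR's quasi-likelihood test called none for any trait. Between 23 and 267 genes a trait had an unadjusted p under 0.05 with limma and between 23 and 237 with edgeR. These are fewer than that threshold passes by itself among 11148 genes.

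On testis weight, 14 of the 16 slopes were negative, against 46.6% of all genes tested, and ADAMTS6 and ITGB3BP had positive slopes. The median slope was -0.16 (log2 per within-diet SD of testis weight), against 0.01 over all genes. The lowest belonged to LAMC3 (-0.33 ± 0.22, SE), LAMB2 (-0.31 ± 0.20) and SDC4 (-0.30 ± 0.17), and the highest to ADAMTS6, 0.28 ± 0.10. Only ADAMTS6 had an unadjusted p under 0.05 (limma, n = 16, p = 0.011, adjusted p = 1.00), as 0.852% of all genes did with a positive and 1.54% with a negative slope. Because the 14 genes vary together, their shared sign is not 14 separate observations.

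The count of 1 gene with an unadjusted p under 0.05 depended on single sheep. It was 6 without underfed 8, when 2003 of all genes had such a p, 3 without well-fed 6 and 2 without well-fed 2 or underfed 4. With testis weight as ranks within each diet it was 5 (ADAMTS6, ITGB5, LAMB2, LAMC3 and SDC4). Without underfed 8 the median slope was -0.32, and none of the 16 passed an adjusted p of 0.1 by limma in any of these fits.

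The slopes on the other traits did not all share this sign. They were negative in 13 of 16 genes for sperm number (48.8% of all genes) and 14 for epithelium volume (46.7%), but in 4 for tubule diameter (50.6%), 3 for the change of scrotal circumference (39.0%) and 6 for apoptotic germ cells (51.0%). The members with an unadjusted p under 0.05 were few. FBLN1 had a negative slope on sperm number (-0.63 ± 0.21, n = 16, limma p = 0.0074, adjusted p = 0.895), where 0.511% of all genes had a negative slope with such a p. ADAMTS6 had a positive slope on epithelium volume (0.27 ± 0.10, n = 16, limma p = 0.0189, adjusted p = 1.00, 0.314% of all genes). TIMP3 had a positive slope on apoptotic germ cells (0.20 ± 0.09, n = 16, limma p = 0.0433, adjusted p = 1.00, 0.628% of all genes). No member had such a slope on tubule diameter (0.170% of all genes with a negative and 0.0897% with a positive slope) or on the change of scrotal circumference (0.0718% and 0.135%).

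**Figure D5:**
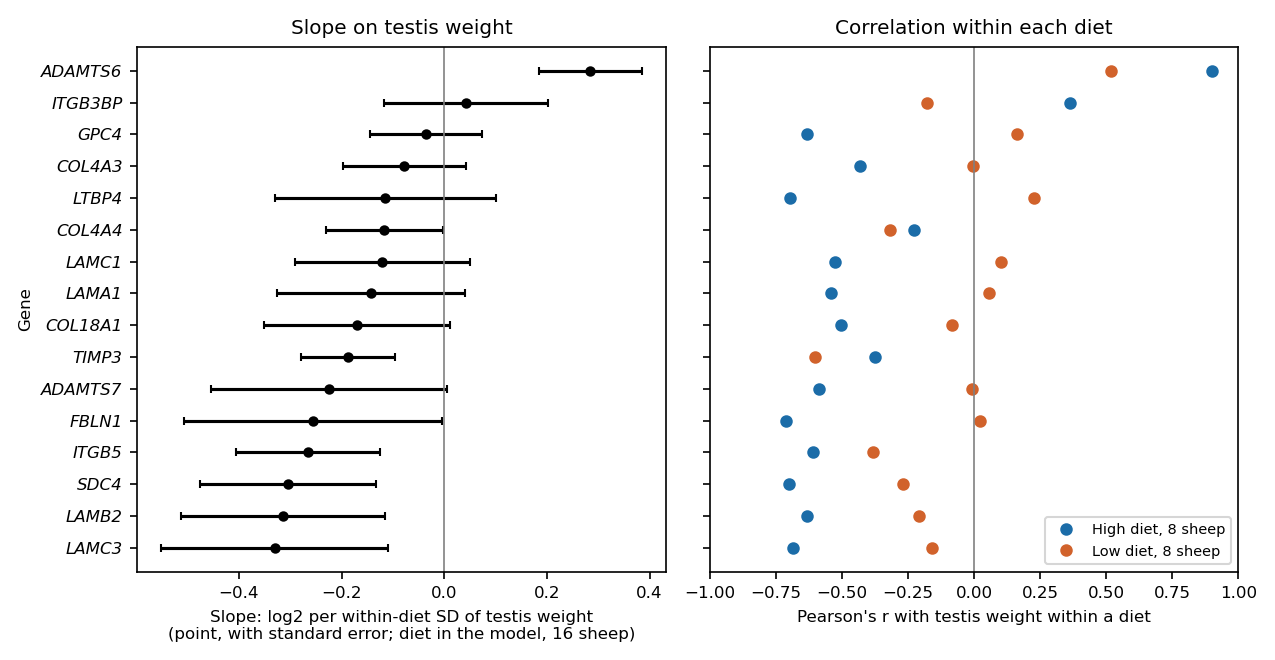
Left, slope of each gene on testis weight with diet in the model (log2 per within-diet SD, point with its standard error, 16 sheep). Right, Pearson's r of each gene with testis weight in the 8 sheep of each diet, where 14 of 16 values are negative in the high diet (median -0.564) and 10 of 16 in the low diet (median -0.05).

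Within the diets, the correlations were taken separately over the 8 well-fed and the 8 underfed sheep. With testis weight, the median r of the 16 genes was -0.564 among well-fed sheep, 14 of them negative, and -0.05 among underfed sheep, 10 of them negative. The medians of all genes tested were 0.02 and 0.06. The closest relation was that of ADAMTS6 among well-fed sheep, where r was 0.900 (exact permutation p = 0.0032, adjusted over all genes p = 0.321) and the Spearman correlation 0.833 (exact permutation p = 0.0154). It was positive when both sheep farthest from the median weight were left out (r = 0.787), and in underfed sheep r was 0.519 (exact permutation p = 0.19) and -0.09 without such a pair.

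Whether the slopes on testis weight differed between the diets was tested with limma as an interaction. None of the 16 genes, and no gene of all tested, passed an adjusted p of 0.1, although 21.5% of all genes had an unadjusted p under 0.05. Among the 16 only LTBP4 had one (difference of slopes, low diet minus high diet, 1.02 ± 0.43, unadjusted p = 0.0293, adjusted p = 0.21). A difference between the diets in these relations was therefore not shown for any of the genes.

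Over the 6 traits and both diets, 192 relations were computed for the 16 genes, of which 11 had an exact permutation p under 0.05 and none an adjusted p under 0.1 over all genes. Beside testis weight, ADAMTS6 was related among well-fed sheep to apoptotic germ cells (r = 0.869, exact permutation p = 0.0046, Spearman 0.857, exact p = 0.0107, r = 0.819 without the pair farthest from the median, adjusted p = 0.351) and to epithelium volume (r = 0.823, exact permutation p = 0.0162, Spearman 0.786, exact p = 0.0279, r = 0.879 without the pair, adjusted p = 0.596). Among well-fed sheep these were 1 gene for testis weight (13.8% of all genes), 2 for sperm number (8.07%), 2 for epithelium volume (3.02%) and 3 for apoptotic cells (12.9%). Among underfed sheep they were 2 for the change of scrotal circumference (1.90%) and 1 for apoptotic cells (1.36%), with none for testis weight (3.83%). The lowest exact p among underfed sheep were those of COL18A1 with the change of scrotal circumference (r = -0.726, exact permutation p = 0.0148, Spearman -0.833, exact p = 0.0154, r = -0.789 without the pair, adjusted p = 0.96) and of TIMP3 with apoptotic cells (r = 0.762, exact permutation p = 0.0156, Spearman 0.738, exact p = 0.0458, r = 0.319 without the pair, adjusted p = 1.00).

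Other genes of the matrix and of adhesion were taken from fixed lists and matched by symbol to the study's lists, so they too were chosen by the diet comparison and their counts are a description beside the 10.8% of all genes called higher and 5.42% called lower. Of 25 further basement membrane and matrix genes 10 could be matched, of which 8 were called higher in underfed sheep, 1 lower and 1 not, with a median log2 fold change of 0.99. NPNT, a ligand of integrin alpha 8, had a ratio of 3.26 (4.24 ± 1.78 CPM in well-fed, 13.8 ± 5.90 in underfed sheep, SD), the proteoglycan SPOCK2 2.86, the Fraser complex protein FREM2 2.62 and the dystroglycan ligand EGFLAM 1.86. Of 18 matrix-modifying enzymes 4 were matched and 3 called higher, namely the prolyl hydroxylase P4HA2 (ratio 2.17), the heparan sulfatase SULF1 (2.12) and the collagen galactosyltransferase COLGALT2 (1.87).

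All 3 of 5 matrix receptors outside the integrins and syndecans that could be matched were called higher. BCAM, which binds laminin, was at 9.77 ± 5.997 CPM in well-fed and 33.4 ± 13.3 CPM in underfed sheep (SD, n = 8), a ratio of 3.41, dystroglycan (DAG1) had a ratio of 2.51, and the collagen receptor DDR1 2.82. Of 20 focal adhesion genes 11 were matched and 10 called higher, with a median log2 fold change of 1.20. The 4 with the smallest p among them were vinculin (VCL, ratio 2.54), paxillin (PXN, 3.57), BCAR1 (2.51) and the kinase SRC (2.65). The log2 sum of the focal adhesion genes had an r of 0.979 with the mean of the 14 matrix and adhesion genes after removal of the diet means, that of the 3 receptors 0.966, that of the basement membrane and matrix genes 0.794 and that of the modifying enzymes 0.839.

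Library totals ranged from 9552149 to 18230076 reads in well-fed and from 7646547 to 14690953 reads in underfed sheep, and a gene with 3 reads would stand at 0.165 to 0.392 CPM. No pair of libraries of a diet agreed within sampling noise. Well-fed 8 was lowest on the leading principal component, and underfed 7 stood apart on the next (14.3% of the variance). Without well-fed 8 the count of members called was 8 and of all genes 866, and without underfed 7 they were 14 and 2048.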

How the data were processed

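Testis RNA of 16 sheep was sequenced as paired ends. The authors aligned them to OAR3.1 by TopHat2 (version 2.0.10), assigned them to Ensembl genes by htseq-count, scaled the counts to the library total and deposited the resulting CPM, with no gene left out. The strand setting of the counting is not given in the sources used here. Whole reads were recovered from CPM for 100% of values (tolerance 0.01 reads).

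Diet and number came from the sample labels, trait values from the study's supplement. The 16 genes and all lists were chosen with earlier results of these data known. All 16 genes are named, with up to 4 called genes of the smallest p from each further list and the 5 genes most like the mean of the 16. Columns of the authors' own comparisons in the study's lists were not used.

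CPM were divided by TMM factors (edgeR 4.0.16), and log2(value + 1) was compared with limma (version 3.58.1, trend on) over the 11148 genes that exceeded 5 CPM in 8 or more libraries, with Benjamini-Hochberg adjustment. Calls needed an adjusted p under 0.1 and a ratio of mean CPM above 1.5. Fold changes on this scale understate the change of low genes. Correlations within a diet were tested exactly over 40320 orders, two-sided. Count tests on the recovered reads (edgeR, DESeq2 1.42.0, R 4.3.3) were alternatives. The tests were tested on simulated data in which genes varied independently. In these sheep many genes vary together, so the simulation does not show how stable the counts of called genes are. Each sheep is 1 sample. The listed genes have no sequence or position here, because no annotation of OAR3.1 was used.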

Additional observations from a re-analysis of the deposited data

How the results depend on the processing

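With an adjusted p under 0.05, 837 genes and 8 of the 16 were called for diet. In a separate alternative, at an adjusted p under 0.1, the counts were 0 and 0 when the model held testis weight too. That last fit cannot separate diet from testis weight, as said above, so its counts do not show that the diet difference is absent. Without 1 sheep there were between 692 and 2702 genes and between 8 and 16 of the 16, with the lowest count of genes without underfed 6 and the highest without underfed 1. Library totals in place of TMM factors gave 1563 genes higher and 455 lower, against 1204 and 604. edgeR's quasi-likelihood test called 1673 genes and 12 of the 16, DESeq2 2159 and 15. Of 400 fold changes of single genes under alternatives, 399 moved by less than the SD between sheep and none changed sign. Most of these were fits without 1 sheep, which can move the mean of a diet by only a part of that SD. The replicate block cannot move a fold change at all, so this count says little about stability. ADAMTS6 moved to -0.12 with testis weight as a covariate.

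For testis weight, the 1 gene called became 0 without a filter, with edgeR's quasi-likelihood test, with an adjusted p under 0.05, with ranks, with the replicate block, and between 0 and 1 without 1 sheep. Members with an unadjusted p under 0.05 numbered 2 with library totals, without a filter and with DESeq2, 5 with ranks, and between 1 and 6 without 1 sheep. The median slope stayed between -0.32 and -0.10 without 1 sheep.

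Whether same-numbered sheep of the 2 diets form pairs is not stated in the sources used here. Of 8 such pairs, 2 had deviations correlated above 0.1 (from -0.627 to 0.705, mean -0.149). The mean was 0.02 for sheep of unlike number, and the sheep were treated as unpaired. With the replicate block 1067 genes were called for diet, 11 of the 16 genes among them, and the median slope on testis weight turned to 0.0686. The cause was not tested. The alternative source of symbols was not run, because the reference table held no Ensembl identifiers to match.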

Other observations

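Some matrix genes ran against the rest of their lists. These were chosen for mention after their values were seen. ASPN, a small leucine-rich proteoglycan, was at 14.99 ± 8.89 CPM in well-fed and 7.68 ± 4.25 CPM in underfed sheep (SD, n = 8), the gene called lower in its list (log2 fold change -1.05 ± 0.39, SE). POSTN, the matricellular protein periostin, was at 13.8 ± 11.6 and 6.72 ± 3.34 CPM and was not called. P4HA1, a catalytic subunit of prolyl hydroxylase like P4HA2, was at 27.8 ± 5.10 and 19.9 ± 4.62 CPM and missed the ratio of 1.5, whereas P4HA2 was at 64.4 ± 22.9 and 140 ± 44.1 CPM. After removal of the diet means, the r with the mean of the 14 matrix and adhesion genes was -0.412 for ASPN, -0.545 for POSTN, -0.894 for P4HA1 and 0.814 for P4HA2.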
